A study of Rattus norvegicus with 12 samples.

Results

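The genes described here are 4 members of hypoxia and VEGF signalling, chosen by Ensembl rat gene ID from a table of 19955 genes. They are Vegfa (ENSRNOG00000019598), Kdr (ENSRNOG00000046829), Flt1 (ENSRNOG00000000940) and Hif1a (ENSRNOG00000008292), and each was present and passed the filter on low signal. Poly-A RNA was sequenced from hearts of wild-type Sprague Dawley rats in 3 groups: a sham operation without infarct, a myocardial infarction (MI), and an infarct with a cardiac patch sutured along its edge (Patch). The labels give no time after surgery, age, sex or sampled heart region, and do not say whether an animal was used for 1 library. Of 12 labelled samples, 4 in each group, 10 libraries could be assigned by column name: 2 sham (sham1 and sham2), 4 MI (MI1, MI2, MI162 and MI165) and 4 Patch (P695, P697, P699 and P985). A further 2 columns, ctrl1 and ctrl2, fit no label and were left out; they may be the remaining sham samples, and each comparison with sham depends on that choice.

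VEGF-A, the protein of Vegfa, is a secreted growth factor that makes endothelial cells divide, migrate and become permeable. In the heart it is made largely by cardiomyocytes and acts on the endothelium of the capillaries between them. KDR (VEGFR-2) is the receptor that carries most of this signal in endothelial cells. FLT1 (VEGFR-1) binds the ligand more tightly but signals weakly, and its soluble form acts as a decoy. HIF-1α, the protein of Hif1a, is the oxygen-regulated subunit of the transcription factor HIF-1. It is degraded when oxygen is plentiful and, when oxygen is short, it drives Vegfa, Flt1 and many other genes. That regulation acts mainly on the protein, which RNA sequencing does not measure.

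HIF-1 binds DNA at a short core, ACGTG or GCGTG, and the promoter windows of the members are shown because this factor links them. RefSeq windows (GRCr8, a later build than the rn6 of the data) were searched on both strands over 250 bases before the listed start. Capitals mark either core, or the GC box GGGCGG, on either strand. The stretches printed for Vegfa (chr9:22452604-22452853, plus strand) and Kdr (chr14:32571813-32572030, plus strand) stop before the gene record begins:
Vegfa: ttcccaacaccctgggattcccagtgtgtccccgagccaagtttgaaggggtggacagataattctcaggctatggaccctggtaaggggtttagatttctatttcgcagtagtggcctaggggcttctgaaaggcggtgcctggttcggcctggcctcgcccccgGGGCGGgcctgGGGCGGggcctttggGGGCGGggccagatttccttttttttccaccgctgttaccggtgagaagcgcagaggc
Kdr: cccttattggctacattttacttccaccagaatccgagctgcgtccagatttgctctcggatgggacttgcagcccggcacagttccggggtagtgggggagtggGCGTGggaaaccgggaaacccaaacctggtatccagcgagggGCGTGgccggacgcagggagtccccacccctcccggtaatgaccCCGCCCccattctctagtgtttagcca

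The Vegfa stretch held neither HIF core and 3 GC boxes, and a second Vegfa window held none of the 3 motifs. No match says only that these letters are not in this window. Kdr held 2 GCGTG cores, 145 and 103 bases before the start, and 1 GC box. For Flt1 and Hif1a, whose gene records begin upstream of their windows, only the bases around each core are given:
Flt1, 227 bases before the start: ctagcgccaccgCACGCgcgctccggccc
Hif1a, 228 bases before the start: acacagacgagcACGTGagctgggcagct
Hif1a, 164 bases before the start: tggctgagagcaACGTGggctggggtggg

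The Flt1 match (chr12:12333203-12333207) is GCGTG read on the other strand, and the Flt1 window also held 3 GC boxes. The first Hif1a match (chr6:98359670-98359674) overlaps a second ACGTG on the other strand, and the other Hif1a match lies at chr6:98359734-98359738. Among 33469 RefSeq windows of 250 bases, 36.7% held ACGTG or GCGTG and 30.5% held GGGCGG. These matches describe the letters and are no evidence of binding.

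Depth was 11420710 to 14110864 recovered reads per library. The members had 668 to 5718 reads each, so that counting error was at most 3.87% of a value (Hif1a in sham1) and 2.89% or less for the other members. Among the libraries, MI2 had 5474 genes at 0, where the other 9 libraries had 2400 to 3335, and 169 genes with exactly 1 read, against 632 to 979. Tests that rest on MI are therefore given with and without it. P699 had the lowest Patch signal for Vegfa, Kdr and Flt1. The table pairs no ID with a symbol, so that markers of heart muscle, endothelium and other cells, the other VEGF ligands and receptors, and HIF target genes were not analysed here. Signal is not corrected for gene length, and levels are compared between libraries for 1 gene, never between genes.

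Vegfa, the ligand, had a signal of 6234 in sham1 and 5400 in sham2. In MI it was 2322 in MI1, 5003 in MI2, 2260 in MI162 and 3274 in MI165. In Patch it was 6422 in P695, 5759 in P697, 4256 in P699 and 5167 in P985. All 4 MI libraries lay below both sham libraries, MI2 by the least, while the Patch libraries spanned the sham range and reached below MI2 with P699. In RPM (reads scaled to the library total), MI2 (416) lay above sham2 (402), so that on that scale MI and sham overlapped through MI2. The group means were 5817 ± 590 (SD, n = 2) for sham, 3215 ± 1279 (SD, n = 4) for MI and 5401 ± 920 (SD, n = 4) for Patch, so that MI stood at 55.3% (45.0% without MI2) and Patch at 92.9% of the sham mean. In bulk heart RNA, fewer cells of a type and less RNA per cell cannot be told apart.

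Differences were tested with limma on log2(signal + 1) over 17091 genes, and a gene was called at a Benjamini-Hochberg adjusted p under 0.05. The spread of a gene was estimated over all groups together, so the MI libraries also enter the SE and interval of Patch versus sham. MI was set against sham for the state after infarction, Patch against MI for the patch treatment named in the study title, and Patch against sham for the distance that remained. Vegfa was lower in MI than in sham by a log2 difference of −0.93 (SE 0.30, 95% interval −1.59 to −0.27), which did not pass the threshold (limma adjusted p 0.0590). It was higher in Patch than in MI by 0.81 (SE 0.25, 95% interval 0.27 to 1.35), also just short of the threshold (limma adjusted p 0.0515). Patch and sham differed by −0.12 (SE 0.30, 95% interval −0.78 to 0.54, limma adjusted p 1). Without MI2, whose Vegfa signal was 86.0% of the sham mean against 38.9 to 56.3% in the other MI libraries, Vegfa fell by 1.17 on the log2 scale in MI (SE 0.22, limma adjusted p 0.00356). Without MI2 it rose by 1.05 in Patch over MI (SE 0.18, limma adjusted p 0.00274), and every Patch library lay above every MI library, in signal and in RPM. The Patch-versus-MI difference also passed without P699, the lowest Patch library (0.92, limma adjusted p 0.0485). It did not pass without any other single library, with a limma adjusted p of 0.103 without MI1, 0.142 without MI162, 0.151 without P695, 0.121 without P697 and 0.115 without P985. The MI-versus-sham difference had a limma adjusted p of 0.294 without sham1 (log2 −0.83) and 0.199 without sham2 (log2 −1.03).

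**Figure D1:**
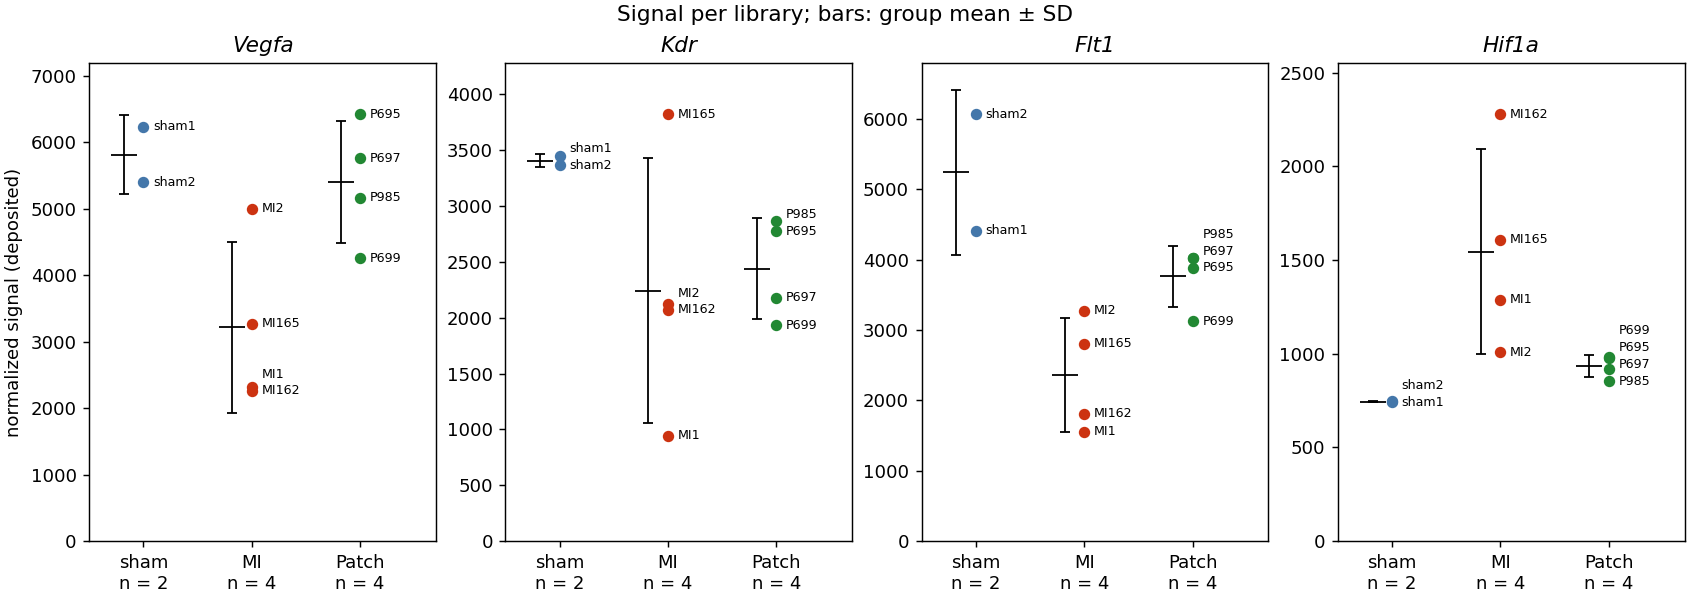
Normalized signal of Vegfa, Kdr, Flt1 and Hif1a (vertical axes, starting at 0) in each library, by group (horizontal axes); each point is a library with its name, and the bars to the left give the group mean ± SD. MI2 is the highest MI library for Vegfa (5003) and Flt1 (3277) and the lowest for Hif1a (1008), and MI165 is the highest of all 10 for Kdr (3821).

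Flt1, the decoy-capable receptor, fell in MI. Its signal was 4415 in sham1 and 6068 in sham2, against 1552 in MI1, 3277 in MI2, 1810 in MI162 and 2803 in MI165. In Patch it was 3885 in P695, 4021 in P697, 3124 in P699 and 4026 in P985. All 4 MI libraries and all 4 Patch libraries lay below both sham libraries, and Patch and MI overlapped through MI2 and P699. In RPM, MI165 (250.2) also lay just above P699 (249.5). The means were 5241 ± 1169 (SD, n = 2) for sham, 2360 ± 815 (SD, n = 4) for MI and 3764 ± 432 (SD, n = 4) for Patch, which is 45.0% of the sham mean in MI (39.2% without MI2) and 71.8% in Patch.

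The MI difference of Flt1 was −1.20 on the log2 scale (SE 0.29, 95% interval −1.83 to −0.57, limma adjusted p 0.0205), a 2.30-fold lower level. It was the only member called lower in MI, 1 of 4, where 8.12% of all tested genes were called lower. Patch exceeded MI by 0.73 (SE 0.23, 95% interval 0.22 to 1.24) without passing the threshold (limma adjusted p 0.0607). Against sham, Patch differed by −0.47 (SE 0.29, 95% interval −1.10 to 0.16, limma adjusted p 1), a value that was −0.70 without sham1 and −0.24 without sham2. Without MI2, the MI fall was 1.38 in size (log2 −1.38, SE 0.25, limma adjusted p 0.00303) and Flt1 rose by 0.91 in Patch over MI (SE 0.21, limma adjusted p 0.00981). The sham libraries differ by 1.37-fold, and the call in MI was lost with 1 of them: the log2 difference was −1.43 with sham2 alone (limma adjusted p 0.102) and −0.97 with sham1 alone (0.188). With only MI and sham in the fit it stayed at −1.20 (limma adjusted p 0.0821).

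Kdr, the main signalling receptor, was the member with the widest spread in MI. Its signal was 3445 in sham1 and 3363 in sham2. In MI it was 944 in MI1, 2123 in MI2, 2071 in MI162 and 3821 in MI165. The MI libraries thus ran from the lowest to the highest of all 10, a 4.05-fold range, and enclosed the sham values. In Patch it was 2773 in P695, 2179 in P697, 1933 in P699 and 2862 in P985, each below both sham libraries. The means were 3404 ± 58.1 (SD, n = 2) for sham, 2240 ± 1186 (SD, n = 4) for MI and 2437 ± 452 (SD, n = 4) for Patch.

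No Kdr difference passed the threshold. MI differed from sham by −0.77 on the log2 scale (SE 0.41, 95% interval −1.67 to 0.13, limma adjusted p 0.229) and Patch from MI by 0.27 (SE 0.33, 95% interval −0.47 to 1.00, limma adjusted p 0.626). Patch differed from sham by −0.50 (SE 0.41, 95% interval −1.40 to 0.40, limma adjusted p 1). These intervals include both no change and a change of more than 2-fold for MI. The Patch-versus-MI value depended on MI1, without which it was −0.09. Leaving out MI2 moved it little, to 0.30 (SE 0.37, limma adjusted p 0.581). The MI-versus-sham value was −0.41 without MI1 (limma adjusted p 0.334), −1.08 without MI165 (0.0553) and −0.80 without MI2 (SE 0.44, limma adjusted p 0.206). Kdr was at 71.6% of the sham mean in Patch and 65.8% in MI (66.9% without MI2).

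Hif1a, the oxygen-regulated subunit gene, rose in MI. Its signal was 742 in sham1 and 746 in sham2, against 1287 in MI1, 1008 in MI2, 2277 in MI162 and 1608 in MI165. In Patch it was 978 in P695, 921 in P697, 981 in P699 and 853 in P985. The 3 groups did not overlap: every Patch library lay between the higher sham and the lowest MI library. The means were 744 ± 3.40 (SD, n = 2) for sham, 1545 ± 546 (SD, n = 4) for MI and 934 ± 60.2 (SD, n = 4) for Patch, so that MI stood at 207.7% (231.7% without MI2) and Patch at 125.5% of the sham mean.

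The MI difference of Hif1a was 0.99 on the log2 scale (SE 0.25, 95% interval 0.43 to 1.55, limma adjusted p 0.0264), a 1.98-fold higher level. It was the only member called higher in MI, 1 of 4, where 7.30% of tested genes were called higher. The Patch-versus-MI difference was −0.66 (SE 0.21, 95% interval −1.12 to −0.21) and did not pass the threshold (limma adjusted p 0.0565). Against sham, Patch differed by 0.32 (SE 0.25, 95% interval −0.23 to 0.88, limma adjusted p 1). Without MI2, Hif1a rose by 1.17 in MI over sham (SE 0.20, limma adjusted p 0.00258) and fell by 0.85 in Patch against MI (SE 0.17, limma adjusted p 0.00566). With 1 sham library the rise in MI kept its size (log2 0.98 without sham1 and 0.99 without sham2) and lost its call (limma adjusted p 0.158 and 0.154). The same held with only MI and sham in the fit (log2 0.99, limma adjusted p 0.101).

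**Figure D2:**
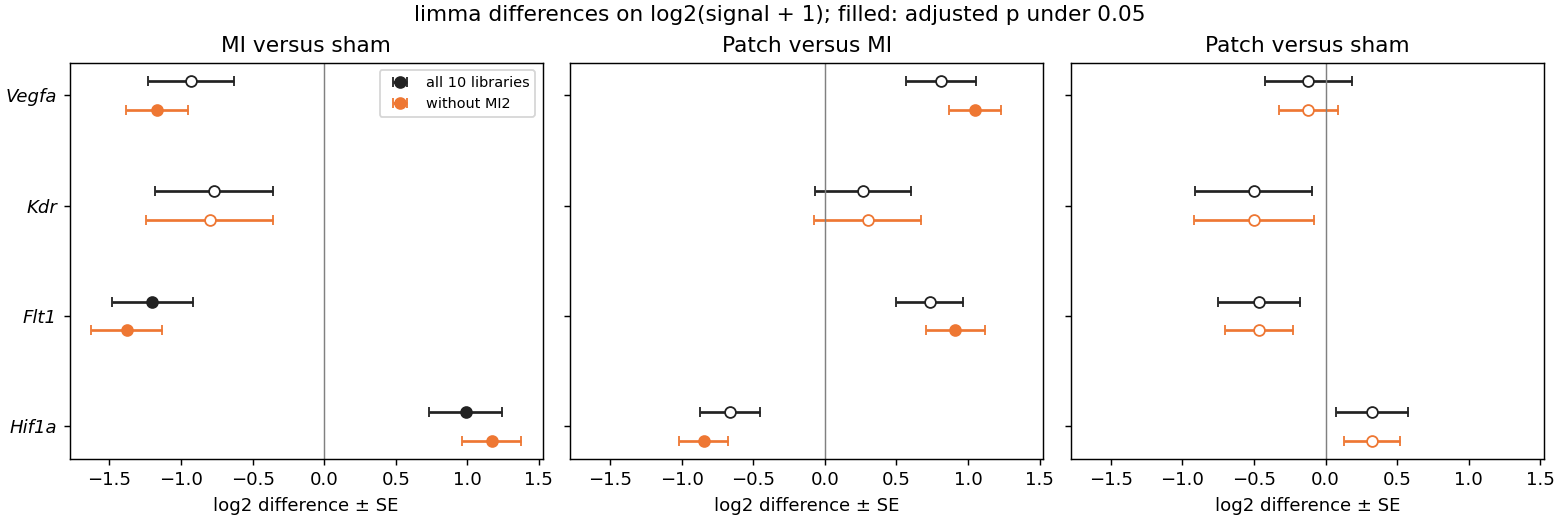
Log2 differences (horizontal axes, ± SE) of the 4 genes in the 3 comparisons, from limma with all 10 libraries (black) and without MI2 (orange); filled symbols have an adjusted p under 0.05. With all libraries Flt1 (−1.20) and Hif1a (0.99) are filled in MI versus sham and no gene in Patch versus MI; without MI2, Vegfa, Flt1 and Hif1a are filled in both.

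Set against all tested genes, the members' counts were as follows. In MI versus sham, 2 of 4 members lay lower in every MI library (Vegfa and Flt1), as did 18.6% of tested genes, and 1 of 4 lay higher in every MI library (Hif1a), as did 17.1%. In RPM, 1 of 4 lay lower in every MI library (Flt1), as did 11.0% of genes. In Patch versus MI, 0 of 4 members were called, where 7.72% of genes were called higher and 5.45% lower in Patch. Hif1a alone lay lower in every Patch library than in MI, as did 7.79% of genes, and no member lay higher in every Patch library, as did 9.81%. In Patch versus sham, 0 of 4 members and 0% of genes were called. Kdr and Flt1 lay lower in every Patch library than in sham, as did 9.37% of genes, and Hif1a lay higher, as did 9.18%.

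Without MI2, 2 of 4 members were called lower in MI than in sham (Vegfa and Flt1) and 1 higher (Hif1a), where 14.5% of 17109 tested genes were called lower and 14.6% higher. In Patch versus MI, the same fit called Vegfa and Flt1 higher, where 14.5% of genes were called higher, and Hif1a lower, where 13.7% were. Vegfa and Flt1 then lay above MI in every Patch library, as did 17.4% of genes, and Hif1a below, as did 16.9%. In RPM Vegfa alone lay above, as did 11.6% of genes. Calls were thus more frequent over the whole table as well once MI2 was left out. MI versus sham and Patch versus MI share the MI libraries, so that an unusual MI library moves both values of a gene in opposite directions.

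**Figure D3:**
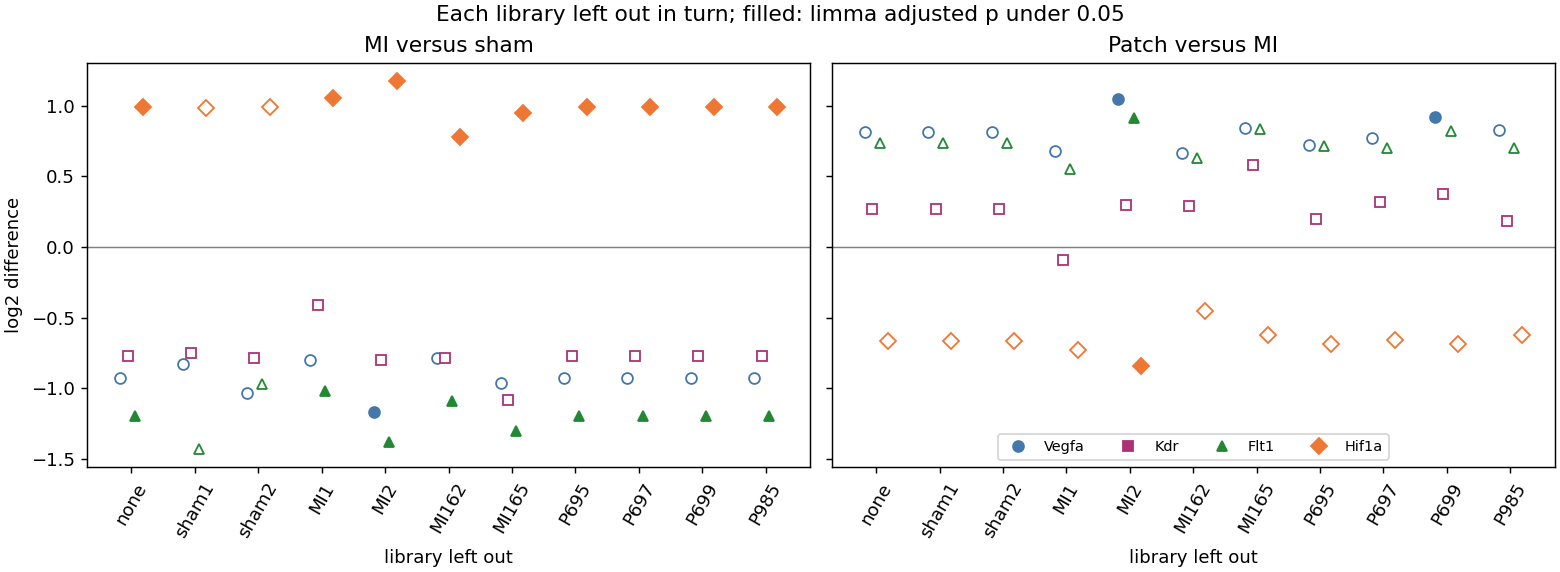
Log2 difference of each gene (vertical axis) in MI versus sham and Patch versus MI, with no library left out and with each of the 10 left out in turn (horizontal axis); filled symbols have a limma adjusted p under 0.05. Vegfa, Flt1 and Hif1a keep their direction throughout, Flt1 and Hif1a lose the MI-versus-sham call without either sham library, and Kdr changes sign in Patch versus MI without MI1.

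Ligand and receptors were also set against each other within each library, which removes any library-wide scaling. These ratios are of signals not corrected for length, so only their change between libraries has a meaning, and they were not tested. The Vegfa-to-Kdr ratio was 1.81 and 1.61 in sham1 and sham2, and 2.32, 2.64, 2.20 and 1.81 in P695, P697, P699 and P985. In MI it was 2.46 in MI1 and 2.36 in MI2, but 1.09 in MI162 and 0.857 in MI165. The MI libraries thus lay in pairs on either side of the sham values, MI1 and MI2 near Patch and MI162 and MI165 below the other 8 libraries.

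The Flt1-to-Kdr ratio separated the same libraries. It was 0.874 in MI162 and 0.734 in MI165, against 1.64 in MI1, 1.54 in MI2, 1.28 and 1.80 in sham1 and sham2 and 1.40 to 1.85 in Patch. Relative to both Vegfa and Flt1, Kdr was therefore higher in MI162 and MI165 than in any other library. The Vegfa-to-Flt1 ratio varied less among the infarcted hearts, from 1.17 to 1.53 in MI and from 1.28 to 1.65 in Patch. It was 1.41 in sham1 and 0.890 in sham2, so that its difference from sham rested on sham2. The log2 ratio of Vegfa to Flt1 averaged 0.43 ± 0.19 (SD, n = 4) over the MI libraries and 0.51 ± 0.16 (SD, n = 4) over the Patch libraries, a gap of 0.08 that is smaller than either spread and ranged from 0.007 (without P695) to 0.14 (without MI2) with 1 library left out.

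**Figure D4:**
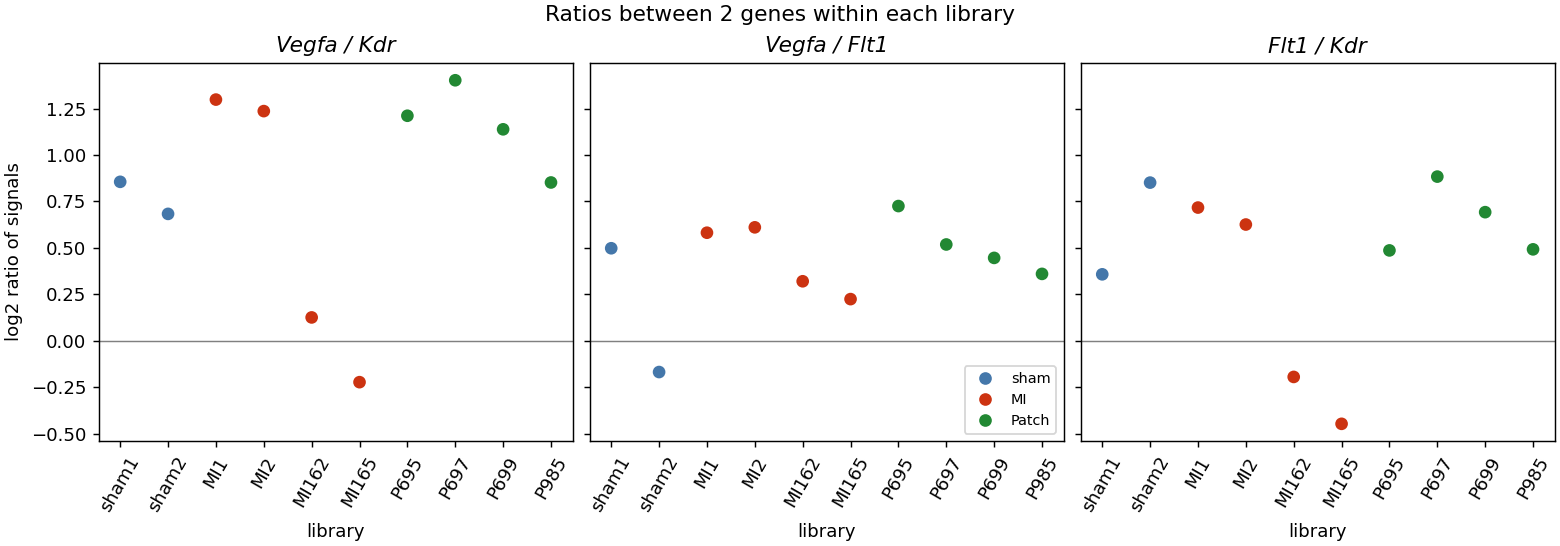
Log2 ratio of the signals of 2 genes within each library (vertical axis; 0 means equal signal, uncorrected for gene length), by library (horizontal axis) and coloured by group. MI162 and MI165 have the lowest Vegfa-to-Kdr and Flt1-to-Kdr ratios of the 10 libraries, and sham2 the lowest Vegfa-to-Flt1 ratio.

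The spread between libraries differed among members and groups. Hif1a had a coefficient of variation of 6.45% in Patch and 35.3% in MI, and Flt1 11.5% in Patch and 34.5% in MI. Vegfa had 17.0% in Patch and 39.8% in MI, or 21.7% in MI without MI2. Kdr had 18.6% in Patch and 53.0% in MI, and 63.6% in MI without MI2. Over the 2 sham libraries it was 22.3% for Flt1, above its Patch value, 10.1% for Vegfa, 1.71% for Kdr and 0.456% for Hif1a. With 4 libraries, 1 library can carry much of such a value, and only MI2 was left out here. For Flt1 in Patch, P699 had a signal of 3124, where the others had 3885 to 4026. For Vegfa in Patch, P699 had 4256, against 5167 to 6422, and for Hif1a P985 had 853, against 921 to 981.

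The profile of each member over the 10 libraries was compared with 11439 other genes of a mean signal of at least 50, by Pearson's r of log2(signal + 1). These correlations describe libraries that fall into groups and share depth and scaling, and carry no test. An r of at least 0.9 was found for 1123 genes (9.82%) with Vegfa, 726 (6.35%) with Flt1, 491 (4.29%) with Hif1a and 28 (0.245%) with Kdr. The Kdr profile thus had the fewest like it among the 4 members. The gene most like Flt1 was ENSRNOG00000004493 (r 0.989, 0.993 without MI2), at 573 ± 137 (SD, n = 2) for sham, 243 ± 111 (SD, n = 4) for MI and 418 ± 60.8 (SD, n = 4) for Patch. The gene most like Hif1a was ENSRNOG00000013963 (r 0.989, 0.993 without MI2), at 1437 ± 44.6 (SD, n = 2) for sham, 2550 ± 812 (SD, n = 4) for MI and 1736 ± 70.4 (SD, n = 4) for Patch. For Vegfa and Kdr the highest r was 0.994 and 0.968.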

How the data were processed

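RNA was measured by poly-A sequencing of rat heart. The deposited table holds a normalized signal per gene and library. Per the submitters' processing notes, HISAT2, SAMtools, featureCounts, DESeq2 and the build rn6 were used; versions, annotation and strand setting are not given in the sources used here, so antisense or overlapping genes cannot be told apart. The deposited signal consisted of whole multiples of a step per library (100% of values, tolerance 0.01 read), from which reads were recovered. Columns were assigned by name; 2 columns, ctrl1 and ctrl2, match no label and were not used, leaving 2 of 4 sham samples; whether they hold the others is not stated. The planned fit thus had 10 libraries, not 12.

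Genes whose signal averaged 1 or more (17091) entered a limma fit (version 3.58.1, R 4.3.3) of log2(signal + 1). All groups were in the same fit with a mean-variance trend, and p-values were adjusted over all genes. On simulated data, limma recovered 43% of 100 genes changed 2-fold in MI versus sham and 71% in Patch versus MI. Of 100 genes changed 4-fold it recovered 95% and 100%, and false calls numbered 11 and 7. The simulation gave every library the same variability, held no library like MI2, and changed only genes well above the low-signal filter. In the data all 4 members varied more in MI than in sham or Patch, so these rates need not hold for them. The scale slightly understates changes. edgeR 4.0.16 and DESeq2 1.42.0 on recovered reads, other scalings, filters and pseudocounts, and leaving out each library were alternatives; counts of groups that do not overlap were repeated on RPM (reads scaled to the library total), after seeing the data. Python 3.11.15, pandas 2.3.3 and matplotlib 3.10.9 were also used. P-values measure the spread between these libraries, which may be technical in part, and PCR copies count as reads. That spread is shared by all groups, though the groups differed in it. The SD of log2(signal + 1) for Kdr was 0.025 in sham, 0.83 in MI and 0.27 in Patch. For Hif1a it was 0.007 in sham, 0.50 in MI and 0.095 in Patch. The SE of Patch versus sham thus draws on MI libraries outside that comparison.

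The members, lists and tests were chosen with earlier results of these data known. Named here are the 4 members, given by ID, and the genes most similar to them by correlation, for 2 members only (those called in MI versus sham, a choice made after the values were seen). Of the table's IDs, 0 matched the gene table used here, so the 10 gene lists, 5 of them cell type markers, were not analysed here.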

Additional observations from a re-analysis of the deposited data

Results flagged for a closer look

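Libraries were compared within 14 sets of 4 values (the 4 genes and 3 ratios, each in MI and in Patch), and 1 set had a library far from the others. The Flt1 signal of P699 was 3124, where the next Patch library had 3885; the gap was 0.844 of the whole range, above Dixon's 95% critical value for 4 samples. Chance gives about 1 such set in 20, or 0.7 among 14. P699 was also the lowest Patch library for Vegfa and Kdr, but not for Hif1a. Without P699 the Patch-versus-MI difference of Flt1 was 0.82 on the log2 scale and did not pass the threshold (limma adjusted p 0.0613).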

How the results depend on the processing

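Column names end in the labels' replicate numbers for sham1, sham2, MI1 and MI2 alone, and no label says that a number pairs animals. Deviations from the group means correlated, across 17091 genes, at −0.02 for sham1 with MI1 and 0.05 for sham2 with MI2. With 2 sham libraries the deviations of sham1 and sham2 mirror each other, so this check cannot show whether a number pairs libraries. With the number as a replicate block, these 4 libraries gave 302 genes called in MI versus sham, against 2 without the block; Flt1 (log2 −1.20) and Hif1a (0.61) passed in neither fit. With 1 residual degree of freedom, this says little of either gene. No paired fit was made for Patch, whose columns carry no such number. Leaving out 1 sham library leaves a lone one, assumed to vary like the other groups. These fits of 4 libraries, edgeR without MI2, and limma with neither MI2 nor P699 were chosen after seeing the data.

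Vegfa in MI versus sham passed the threshold with array weights (log2 −1.06) and DESeq2 (−0.86). It passed in edgeR without MI2 (−1.14), in limma without MI2 (−1.17) and in limma without both MI2 and P699 (−1.17). These were 5 of 25 alternatives, and 20 did not pass. Of the 5, all but DESeq2 left out MI2 or gave it the lowest weight of the libraries (0.193). Without 1 library the Vegfa value was −1.17 to −0.79. Flt1 and Hif1a in MI versus sham lost their calls with only 2 groups in the fit (−1.20 and 0.99) and without either sham library, and ranged from −1.43 to −0.97 and from 0.78 to 1.17 without 1 library. Leaving out 1 library gave 0.67 to 1.05 for Vegfa, 0.55 to 0.91 for Flt1 and −0.85 to −0.45 for Hif1a in Patch versus MI, with a call for all 3 without MI2 and for Vegfa without P699 (0.92, limma adjusted p 0.0485). In the same comparison Vegfa passed with a mean signal of at least 10 (0.81). Array weights gave calls for Vegfa (0.97), Flt1 (0.81) and Hif1a (−0.90), as did DESeq2 (0.75, 0.68 and −0.73), edgeR without MI2 (1.04, 0.87 and −0.89) and limma without MI2 and P699 (1.16, 1.00 and −0.87). Hif1a also passed with total (−0.84) and quantile scaling (−0.75). Of 23 alternatives in Patch versus MI, 7 passed for Vegfa, 5 for Flt1 and 7 for Hif1a. Kdr passed under none of its alternatives, 25 in MI versus sham and 23 in each other comparison. In MI versus sham it was −0.41 without MI1 and −1.08 without MI165, and −1.265 in both fits of the 4 libraries numbered 1 and 2. In Patch versus MI it was −0.091 without MI1 and 0.58 without MI165, 0.089 with total scaling, 0.14 with quantile scaling, 0.10 with array weights, 0.12 in both edgeR and DESeq2, 0.096 in edgeR without MI2 and 0.40 without MI2 and P699. No direction of Vegfa, Flt1 or Hif1a changed. Patch versus sham gave no call for any of the 4 genes under the 23 alternatives; without 1 library Vegfa ranged from −0.22 (without sham2) to −0.01 (without P699), and it was −0.06 with total and −0.03 with quantile scaling.

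Scaling to total reads shifted the median of all genes by 0.23 (MI versus sham) and −0.17 (Patch versus MI). Under it 73.5% of calls for MI versus sham lay higher in MI, where the deposited scaling gave 47.3%, and for Patch versus MI the share was 30.2% in place of 58.6%. The 2636 genes called in MI versus sham became 5679 with array weights, 599 with 2 groups, 4687 in edgeR without MI2, 4867 without MI2 and P699, and 7 (without sham1) to 4979 (without MI2), with 24 without sham2 and 1448 without MI162. The 2251 of Patch versus MI became 5383, 1437, 4643 and 4856 in those fits, 3679 in DESeq2, and 209 (without P695) to 4821 (without MI2), with 292 without P985, 611 without P697, 649 without MI162 and 1446 and 1440 without sham1 and sham2. Patch versus sham gave 10 genes with array weights, 15 in DESeq2 and 0 to 2 without 1 library. The cause of these changes was not tested.

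The Vegfa-to-Flt1 log2 ratio differed from sham by 0.27 in MI (−0.064 without sham2, 0.60 without sham1) and by 0.35 in Patch (0.014 and 0.68). The Flt1-to-Kdr ratio differed by 0.03 in Patch (−0.21 without sham1, 0.28 without sham2). With 668 reads or more per value, counting error was at most 3.87% for these genes; other technical variation was not measured. The 2 sham libraries limit every comparison with sham.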
